A study of Mus musculus with 14 samples.

Results

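Gene expression at day 3 was compared between 2 libraries labelled control and 2 labelled MACF1 knockdown, all from MC3T3-E1, a mouse line of osteoblast precursors. Every gene with at least 10 counts in at least 2 of these 4 libraries was taken, which gave 12208 of 24346 genes, and 12138 lay below that minimum. The series holds 14 libraries of polyadenylated RNA, 2 per condition at days 0, 3 and 5 and 1 per condition at day 10. It asks whether MACF1 furthers osteoblast differentiation through Wnt signalling. The sources used here do not say how the knockdown was made, whether it is 1 clone, or when the count of days begins. The pairs are called biological replicates in the design text, but no source says that they came from separate cultures, so p-values measure only how these libraries vary, and that variation may be technical. In bulk RNA, fewer cells of a type and less RNA per cell cannot be told apart.

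Osteoblasts form bone in stages. Precursors commit under the transcription factors Runx2 and Sp7, lay down a matrix of type I collagen, and then mineralise it with the help of alkaline phosphatase, matrix phosphoproteins and phosphate transporters, and some end as osteocytes inside the bone. Canonical Wnt signalling, in which beta-catenin enters the nucleus and acts with Lef and Tcf factors, drives much of this course. MACF1 is a large spectraplakin that links actin filaments to microtubules and also takes part in Wnt signalling.

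The day 3 control libraries held 15419979 and 8044687 counts and the knockdown-labelled libraries 19094812 and 13096527. Control replicate 2 stood apart from the other libraries. Cytoplasmic ribosomal protein genes took 19.6% of its counts, against 8.52% in control replicate 1, 5.80% and 5.66% in the knockdown-labelled libraries, and 5.93% to 11.2% in the libraries of other days. Its difference from replicate 1 fell with exon length (Spearman correlation −0.43 across genes, which are not independent replicates; −0.05 to 0.13 in the other 5 pairs). A chi-square statistic per degree of freedom of 181.1 between the control pair compared with 13.3 to 41.7 in the other pairs, so no pair differed by as little as sampling noise. For these reasons a gene is said below to have risen or fallen only if it passed an adjusted p of 0.05 against both control libraries together and, in the same direction, against each of them alone. In a fit with 1 control library that group has no replicate, and its spread is taken from the other groups. The common dispersion, a measure of spread between replicates, was 0.0465 with both control libraries and 0.0114 with either left out. The p-values of those fits therefore do not measure how control libraries vary at day 3. Levels are in CPM, a gene's counts relative to its library's total after TMM scaling (trimmed mean of M values). Differences are log2 fold changes of the knockdown-labelled libraries relative to control, with standard errors (SE).

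Macf1 itself (ENSMUSG00000028649.15, GRCm38 chromosome 4, 123349633 to 123684360, minus strand) stood at 188 and 55.9 CPM in control replicates 1 and 2 and at 171 and 169 CPM in the knockdown-labelled pair. The low value was that of control replicate 2, and the knockdown-labelled values lay between the 2 controls. Its log2 fold change was 0.47 (SE 0.41, adjusted p = 0.443), −0.17 against control replicate 1 alone and 1.61 against control replicate 2 alone. No fall of Macf1 that would bear out the labels passed at day 3, nor did one at day 0 or day 5 by edgeR. At day 0 Macf1 stood at 154 and 160 CPM in control versus 157 and 163 CPM with the knockdown label (0.03, adjusted p = 0.98). The day 5 values were 176 and 204 against 169 and 181 CPM (−0.12, adjusted p = 0.92). Each direction given here is therefore that of libraries carrying the knockdown label. Dst, which encodes the other mammalian spectraplakin, stood at 174 and 86.2 CPM in control versus 196 and 194 CPM with the knockdown label (0.58, SE 0.29, adjusted p = 0.191).

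Of the 12208 genes tested, 922 passed as higher (7.55%) and 734 as lower (6.01%) against both controls together. Against each control library as well, 847 rose (6.94%) and 583 fell (4.78%), 11.7% of all genes tested. In all 1430 of these the 2 groups did not overlap in CPM, which the rule itself nearly fixes. Groups that do not overlap were common at this group size, with 49.8% of all genes tested, 26.8% having the knockdown-labelled libraries higher. The rises were often large, 450 of them at least 2-fold and 204 at least 4-fold against each control library, compared with 159 and 57 of the falls. These counts include the genes, given next, that entered the test only through 1 group. Their part in this contrast of sizes was not tested. Among the genes tested, 320 had passed the count minimum only through the knockdown-labelled libraries and 62 only through the control libraries, and these had to differ (149 and 20 of them rose or fell). Of the genes named here, Acta1, Adam8, Angpt1, Bglap, Bglap2, Cdh1, Dusp1, Epb4.1l4b, Fgf1, Krt9, Krt14, Mx1, Sema5a, Sybu and Syt1 were tested only through the knockdown-labelled libraries and Adamts9, Ifitm5, Nkd2 and Timp4 only through control, so their values are given as a description, and they add no support to the counts of their lists. This holds also for the list counts given without a knockdown-labelled replicate, where some of these genes still passed. The median gene that rose had a mean of 17.6 CPM and the median gene that fell 46.3 CPM, against 27.4 CPM over all genes. Without knockdown-labelled replicate 1 the numbers were 302 higher and 72 lower, and without replicate 2 they were 293 and 66, with 1 library then assumed to vary like the other groups.

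Single genes differed with the control library used, in fits that have no replicate for the control group. Against control replicate 1 alone 1453 genes passed as higher (11.9%) and 1357 as lower (11.1%), and against control replicate 2 alone 4128 (33.8%) and 3521 (28.8%). In 388 genes both passed, in opposite directions. For example, Ipo7, a nuclear import receptor, stood at 344 and 48.7 CPM in control versus 258 and 247 CPM under the knockdown label, and Caprin1, an RNA-binding protein of stress granules, at 649 and 145 against 498 and 478 CPM. Against control replicate 2 alone the median log2 fold change ran from −0.71 in the shortest of 4 equal groups of genes by exon length (2732 bases or fewer) to 0.58 in the longest (6829 bases or more). Against control replicate 1 alone both medians were −0.03.

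**Figure D1:**
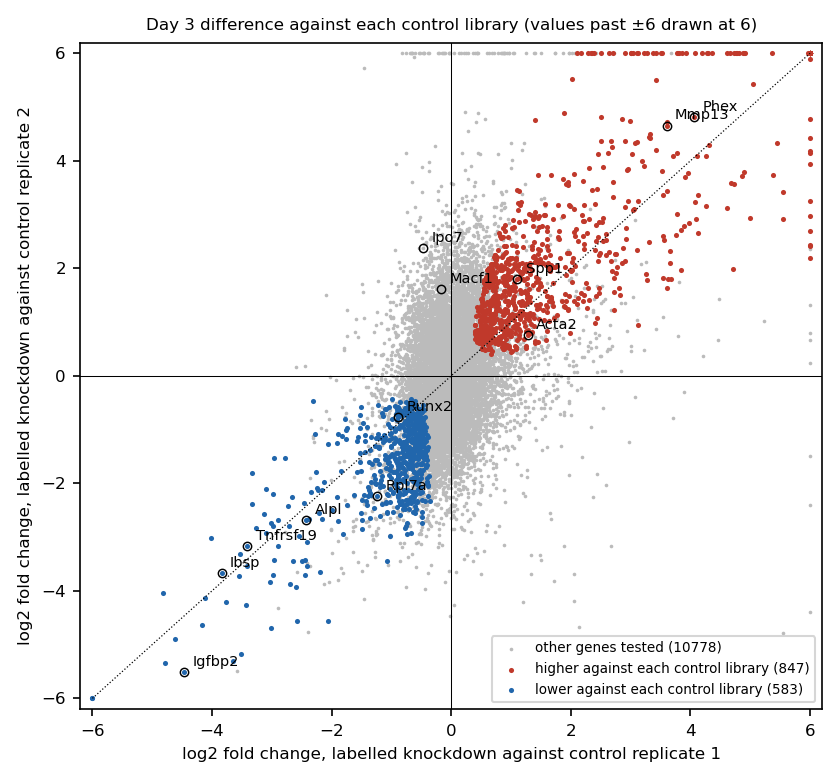
Log2 fold change of the knockdown-labelled libraries against control replicate 1 alone (x axis) and against control replicate 2 alone (y axis), 1 point per gene tested, with 847 genes that rose in red, 583 that fell in blue and 10778 others in grey. Ibsp and Tnfrsf19 lie near the dotted line of equal values, and Phex (4.065 on the x axis and 4.813 on the y axis) and Mmp13 (3.603 and 4.656) lie above it. Macf1 and Ipo7 lie below 0 on the x axis and above 0 on the y axis.

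The shares of each list below are to be read beside those of all genes tested, 6.94% rising and 4.78% falling. Genes of the mineralising osteoblast moved both ways. Of 24 tested, 8 fell and 6 rose (33.3% and 25.0%, against 4.78% and 6.94% of all genes), with a median log2 fold change of −0.42 against 0.00 over all genes. The 8 include Ifitm5 and the 6 include Bglap and Bglap2. These were tested only through the group where they were higher, so they add no support to the shares. Without knockdown-labelled replicate 1, 5 fell and 1 rose, and without replicate 2, 5 fell and 4 rose. Ibsp (ENSMUSG00000029306.8, GRCm38 chromosome 5, 104299171 to 104311469, plus strand), bone sialoprotein, which binds collagen and seeds mineral, stood at 1158 and 1050 CPM in control versus 92.0 and 73.2 CPM in the knockdown-labelled pair. Its log2 fold change was −3.74 (SE 0.31, adjusted p = 0.00013). Alpl, the tissue-nonspecific alkaline phosphatase that frees phosphate for mineral, was at 99.5 and 122 CPM against 20.1 and 17.5 CPM and fell by 2.55 (SE 0.18, adjusted p = 6.26e-05). Both knockdown-labelled libraries lay far below both controls for these 2 genes. Pth1r, the parathyroid hormone receptor, was at 107 and 276 CPM against 17.3 and 19.1 CPM (−3.39, SE 0.41, adjusted p = 0.00114), with control replicate 2 the highest. Cthrc1, a secreted collagen triple helix repeat protein, was at 46.3 and 23.6 CPM against 3.38 and 2.32 CPM (−3.61, SE 0.42, adjusted p = 0.000935). The phosphatase gene Phospho1, which acts in matrix vesicles, was at 66.7 and 134 CPM against 13.1 and 11.8 CPM (−3.01, SE 0.30), but 89.6% of its exon length overlaps Zfp652 on the same strand, so its counts are uncertain. Tnc, Ifitm5 and Kazald1 were the other 3 that fell.

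The members that rose included Spp1, osteopontin, a matrix phosphoprotein that restrains crystal growth. It stood at 964 and 606 CPM in control versus 2231 and 1997 CPM with the knockdown label (1.43, SE 0.25, adjusted p = 0.00657), and its adjusted p was 0.0563 and 0.0366 without knockdown-labelled replicate 1 or 2. Bglap, osteocalcin, was low throughout, at 0.256 and 0.446 CPM in control versus 4.79 and 4.58 CPM under the knockdown label (4 and 3 against 95 and 65 counts). It shares reads with near-identical copies, of which Bglap2 also rose, so both are uncertain. Ank, a pyrophosphate exporter, Slc20a2, a phosphate transporter, and Cdh11, the osteoblast cadherin, rose as well. Col1a1, which encodes a type I collagen chain, had 4427 and 5652 CPM in control versus 5187 and 5235 CPM in the knockdown-labelled pair, so that its groups overlapped (0.05, SE 0.21, adjusted p = 0.891).

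Of 27 osteoblast transcription factors, 3 fell and 1 rose (11.1% and 3.70%), and 1 of each did when either knockdown-labelled replicate was left out. Runx2, the factor that commits cells to the lineage, stood at 180 and 170 CPM in control versus 109 and 90.4 CPM with the knockdown label. It fell by 0.81 (SE 0.18, adjusted p = 0.019), a call lost without knockdown-labelled replicate 1 or 2 (adjusted p = 0.0686 and 0.16). Mef2c, a factor of late osteoblasts and osteocytes, was at 85.0 and 146 CPM against 32.7 and 34.2 CPM (−1.78, SE 0.23, adjusted p = 0.00164). Msx1, a homeobox factor of early skeletal cells, also fell (−1.38, SE 0.36, adjusted p = 0.0366; 0.181 and 0.17 without the knockdown-labelled replicates in turn). Vdr, the vitamin D receptor, was at 16.3 and 29.9 CPM against 89.7 and 96.2 CPM and rose by 2.02 (SE 0.25, adjusted p = 0.00132). Sp7, which acts downstream of Runx2, was at 89.0 and 127 CPM against 76.4 and 96.8 CPM, with overlapping groups (−0.32, SE 0.22, adjusted p = 0.329).

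Of 9 osteocyte genes tested 4 rose and 1 fell (44.4% and 11.1%), and 4 rose and 0 fell when either knockdown-labelled replicate was left out. Phex, a membrane peptidase of the osteocyte (ENSMUSG00000057457.9, GRCm38 chromosome X, 157162075 to 157415312, minus strand), stood at 1.47 and 0.892 CPM in control versus 27.3 and 23.2 CPM under the knockdown label. It rose by 4.32 (SE 0.34, adjusted p = 0.000105). Dmp1, an acidic matrix protein of osteocytes, was at 20.1 and 12.6 CPM against 62.8 and 51.5 CPM (1.79, SE 0.24, adjusted p = 0.0021). Pdpn, a membrane protein of early osteocytes, and Ackr3, a scavenger receptor for Cxcl12, rose by 1.18 and 2.33 (SE 0.19 and 0.30). Irx3, a homeobox factor on this list, was the 1 that fell.

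**Figure D2:**
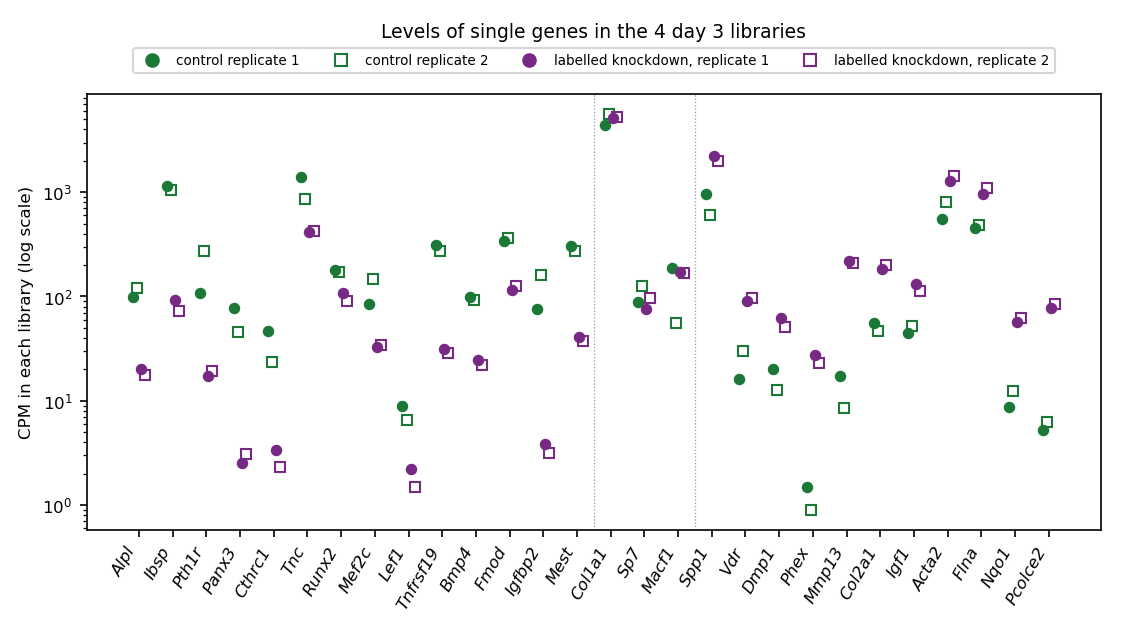
CPM on a log axis of 28 genes in each of the 4 day 3 libraries, control replicates in green and knockdown-labelled replicates in purple. Left of the first dotted line both purple values lie below both green ones, right of the second both lie above, and Col1a1, Sp7 and Macf1 between the lines overlap.

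Collagens and their processing enzymes were split, with 6 of 42 rising and 7 falling (14.3% and 16.7%; 4 and 4 without knockdown-labelled replicate 1, 4 and 2 without replicate 2). Pcolce2, which enhances the trimming of procollagen, was at 5.25 and 6.24 CPM in control versus 77.1 and 84.4 CPM in the knockdown-labelled pair (3.83, SE 0.20, adjusted p = 2.13e-05), and its relative Pcolce fell. Col18a1, a basement membrane collagen, was at 24.5 and 21.4 CPM against 60.9 and 59.9 CPM (1.39, SE 0.16, adjusted p = 0.000894), and the basement membrane chains Col4a1 and Col4a2 rose as well, as did the hydroxylases P4ha3 and P3h2. Adamts2, a procollagen protease, fell from 81.2 and 98.4 CPM to 27.9 and 30.1 CPM (−1.63, SE 0.16, adjusted p = 0.000394). Col11a2, a fibrillar chain typical of cartilage, was at 8.58 and 7.58 CPM against 1.26 and 1.06 CPM (−2.79, SE 0.27, adjusted p = 0.000371). Col5a1, P4ha2, Ppib and Loxl1 were the other members that fell.

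Proteoglycans and matrix glycoproteins were likewise split, 6 of 38 rising and 7 falling (15.8% and 18.4%; 1 and 4 without knockdown-labelled replicate 1, 2 and 3 without replicate 2). Sdc3, a cell-surface heparan sulfate proteoglycan, stood at 119 and 118 CPM in control versus 27.5 and 26.7 CPM with the knockdown label (−2.13, SE 0.15, adjusted p = 8.75e-05). Fmod, which binds collagen fibrils, was at 340 and 367 CPM against 116 and 125 CPM (−1.55, SE 0.17, adjusted p = 0.000646). Nid1, a basement membrane linker, was at 20.0 and 10.6 CPM against 1.86 and 2.18 CPM (−2.94, SE 0.35, adjusted p = 0.000946). Ecm1, a secreted glycoprotein, rose from 53.8 and 88.3 CPM to 212 and 268 CPM (1.76, SE 0.27, adjusted p = 0.00345). Dcn, Sdc2, Fn1, Thbs2 and Matn2 also rose, and Prelp, Matn4, Npnt and Smoc2 also fell.

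Matrix proteases and their inhibitors rose in 7 of 25 cases and fell in 3 (28.0% and 12.0%; 2 and 1 without knockdown-labelled replicate 1, 3 and 2 without replicate 2). Mmp13, the collagenase of bone (ENSMUSG00000050578.9, GRCm38 chromosome 9, 7272514 to 7283331, plus strand), stood at 17.2 and 8.47 CPM in control versus 219 and 209 CPM under the knockdown label. It rose by 4.02 (SE 0.30, adjusted p = 0.000101). Plat, tissue plasminogen activator, was at 38.2 and 22.6 CPM against 86.0 and 94.7 CPM (1.56, SE 0.23, adjusted p = 0.00282). Adamts9, an aggrecan-cleaving protease, held 138 and 34 counts in control and 2 and 0 in the knockdown-labelled pair, a ratio of control to knockdown-labelled levels of 131 (95% counting interval 35.7 to 1090). Adamts9 and Timp4 were tested only through the control libraries. The other members that rose were Adamts1 (1.79, SE 0.30; adjusted p = 0.0528 and 0.0297 without the knockdown-labelled replicates in turn), Adamts5, Timp2, Timp3 and Serpine2, and Timp4 fell.

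Promoter windows of 2 bone matrix genes with opposite differences are shown here because both genes are textbook targets of Runx2. They run from 250 bases before to 50 after the RefSeq start, 5′ to 3′ on the gene's strand (RefSeq, GRCm38.p6), with motif matches in capitals. The Mmp13 window is chr9:7272264-7272563 on the plus strand, with the letters ACCACA (the Runx core) starting 118 bases and TGACTCA (the AP-1 site) starting 35 bases before the start. The Ibsp window is chr5:104299037-104299336 on the plus strand and holds no match to either motif or to TCAAAG, the Lef and Tcf core. The first listed windows of Phex, which rose, and Tnfrsf19, which fell, were searched too and held no match to any of these motifs.
Mmp13: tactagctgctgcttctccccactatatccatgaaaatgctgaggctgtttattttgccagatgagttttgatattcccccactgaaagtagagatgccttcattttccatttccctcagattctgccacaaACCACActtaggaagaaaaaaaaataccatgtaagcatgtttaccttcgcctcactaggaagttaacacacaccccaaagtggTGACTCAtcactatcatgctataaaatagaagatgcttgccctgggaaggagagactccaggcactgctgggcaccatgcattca
Ibsp: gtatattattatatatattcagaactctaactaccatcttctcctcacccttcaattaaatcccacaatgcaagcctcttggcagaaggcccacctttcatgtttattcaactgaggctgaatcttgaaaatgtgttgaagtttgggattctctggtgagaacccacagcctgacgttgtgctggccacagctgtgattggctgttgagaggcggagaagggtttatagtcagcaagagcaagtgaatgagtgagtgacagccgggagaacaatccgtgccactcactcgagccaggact
Searched on both strands in the 8958 tested genes that matched an entry, these letters were found as follows. ACCACA was in 11.9% of all windows, 12.0% of those of genes that rose and 12.0% of those that fell. For TCAAAG the shares were 11.3%, 10.8% and 11.1%, and for TGACTCA 3.36%, 6.06% and 3.62%. These shares describe letters in a fixed window and not binding by a factor. Among AP-1 genes themselves, Jun and Fosl1 rose and Fos and Junb fell.

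Wnt signalling is the pathway the series asks about. Of 27 targets of canonical Wnt signalling, 9 fell and 4 rose (33.3% and 14.8%), with a median log2 fold change of −0.30, −0.46 against control replicate 1 alone and −0.04 against control replicate 2 alone. Without either knockdown-labelled replicate 4 fell and none rose. Tnfrsf19 (ENSMUSG00000060548.10, GRCm38 chromosome 14, 60963875 to 61046490, minus strand), a TNF receptor family member also called Troy, stood at 313 and 272 CPM in control versus 31.5 and 28.5 CPM with the knockdown label. It fell by 3.28 (SE 0.17, adjusted p = 2.13e-05). Bmp4, a bone morphogenetic protein, was at 99.5 and 91.8 CPM against 24.4 and 22.0 CPM (−2.04, SE 0.16, adjusted p = 0.000104). Rnf43, a ligase that removes Frizzled receptors, was at 9.67 and 9.21 CPM against 1.86 and 1.69 CPM (−2.40, SE 0.38, adjusted p = 0.00453), and was lost without knockdown-labelled replicate 1 or 2 (adjusted p = 0.053 and 0.0569). Myc fell (122 and 64.9 against 42.2 and 45.0 CPM; −1.11, SE 0.27, adjusted p = 0.0288) and Ccnd1, cyclin D1, rose (625 and 564 against 876 and 906 CPM; 0.58, SE 0.16, adjusted p = 0.0417). Both calls were lost without knockdown-labelled replicate 1 or 2 (Myc, adjusted p = 0.161 and 0.151; Ccnd1, 0.159 and 0.192), and 23.4% of the exon length of Ccnd1 overlaps a gene on the opposite strand. Nkd2, Wisp1, Fst and Runx2 also fell and Fosl1, Jun and Gja1 rose. Of these, Nkd2 was tested only through the control libraries. Axin2, a feedback inhibitor often read as a measure of the pathway, stood at 16.3 and 7.58 CPM against 11.4 and 10.2 CPM, with overlapping groups (−0.17, SE 0.31, adjusted p = 0.718).

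Of 29 intracellular components and Lef and Tcf factors Lef1 alone fell and 0 rose by edgeR and by DESeq2 (2 were higher and 2 lower at an unadjusted p under 0.05). Lef1 went from 8.90 and 6.54 CPM to 2.22 and 1.48 CPM (−2.06, SE 0.31, adjusted p = 0.00345). Ctnnb1, beta-catenin, stood at 837 and 584 CPM in control versus 629 and 592 CPM under the knockdown label (−0.22, SE 0.20, adjusted p = 0.461). Tcf7 lay below the count minimum. The bHLH factor Tcf12 (164 and 96.9 against 144 and 138 CPM; 0.11, SE 0.22, adjusted p = 0.747) and the E2F repressor E2f6 (26.6 and 12.0 against 35.2 and 33.9 CPM; 0.81, SE 0.29, adjusted p = 0.0911) did not pass. Of 23 ligands and receptors, 2 fell and 1 rose (8.70% and 4.35%). Wnt5b, a ligand, was at 5.25 and 8.62 CPM against 0.907 and 1.13 CPM (−2.74, SE 0.42, adjusted p = 0.00362; 0.0531 and 0.0344 without the knockdown-labelled replicates in turn). The receptor gene Fzd5 fell by 0.73 (SE 0.16, adjusted p = 0.0181; 0.0834 and 0.151) and Fzd6 rose by 1.58 (SE 0.33, adjusted p = 0.0159; 0.0386 and 0.116). Of 6 secreted antagonists, 2 rose and 1 fell (33.3% and 16.7%, against 6.94% and 4.78% of all genes tested). Dkk3 was at 190 and 149 CPM against 402 and 371 CPM (1.19, SE 0.17, adjusted p = 0.0028), and Wif1, which binds Wnt ligands, at 4.04 and 3.72 CPM against 16.1 and 17.9 CPM (2.12, SE 0.28, adjusted p = 0.00179). Sfrp2, a soluble Frizzled-related protein, was at 310 and 243 CPM against 161 and 168 CPM (−0.75, SE 0.18, adjusted p = 0.0244), and its call was lost without knockdown-labelled replicate 1 or 2 (adjusted p = 0.147 and 0.135) and after a correction for exon length (adjusted p = 0.117).

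Of 16 IGF genes 4 rose and 4 fell (25.0% each; 4 and 3 when either knockdown-labelled replicate was left out). Igfbp2, which binds IGF ligands (ENSMUSG00000039323.16, GRCm38 chromosome 1, 72824503 to 72852474, plus strand), stood at 76.7 and 161 CPM in control versus 3.83 and 3.17 CPM in the knockdown-labelled pair, a fall of 5.07 (SE 0.36, adjusted p = 8.98e-05). H19, an imprinted noncoding RNA beside Igf2, was at 26.8 and 23.3 CPM against 2.87 and 1.69 CPM (−3.43, SE 0.35, adjusted p = 0.000425). Igf2 and Irs1, an adaptor of the insulin and IGF receptors, also fell. Igf1, the ligand, rose from 44.6 and 52.3 CPM to 133 and 114 CPM (1.35, SE 0.18, adjusted p = 0.00159), and Igfbp5, Igfbp6 and Igf2bp3 rose too. Mest, another imprinted gene, was at 304 and 271 CPM against 40.6 and 37.8 CPM (−2.87, SE 0.18, adjusted p = 4.97e-05), with 23.1% of its exon length overlapped by Copg2.

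Of 16 FGF genes 5 rose and none fell (31.2%), which was 1 when either knockdown-labelled replicate was left out. Fgf1, a ligand, held 1 and 0 counts in control and 23 and 24 with the knockdown label, a ratio of 30.8 (95% counting interval 5.27 to 1240). It was tested only through the latter, so it adds no support to the counts of this list, with or without a knockdown-labelled replicate. Fgfrl1, a receptor without a kinase, stood at 28.9 and 25.4 CPM in control versus 44.8 and 46.7 CPM under the knockdown label (0.75, SE 0.16, adjusted p = 0.0153). The feedback inhibitors Spry4 and Spred2 and the target factor Etv5 rose too. Fgfrl1 (adjusted p = 0.0822 and 0.108), Spry4 (0.073 and 0.16) and Etv5 (0.0884 and 0.133) did not pass when a knockdown-labelled replicate was left out. BMP and TGF-beta genes moved in 8 of 40 cases, 3 up and 5 down (7.50% and 12.5%; 3 and 3, and 3 and 2, without the knockdown-labelled replicates in turn). Beside Bmp4, Tgfb2, a ligand, fell from 28.5 and 31.2 CPM to 11.7 and 13.4 CPM (−1.25, SE 0.18, adjusted p = 0.00274), and the antagonists Grem1 and Fst and the latency protein Ltbp2 fell. Chrd, chordin, a BMP antagonist, rose from 1.15 and 1.64 CPM to 7.61 and 8.24 CPM (2.56, SE 0.28, adjusted p = 0.000547), as did Ltbp3 and Tgfbi. The rising share of the BMP and TGF-beta list was near the 6.94% of all genes tested. Among 10 Notch genes 1 rose and 1 fell (10.0% each, against 6.94% and 4.78% of all genes tested). Rbpj, the nuclear effector, rose (1.31, SE 0.26, adjusted p = 0.0134) and Hes1, a target, fell (−2.32, SE 0.43, adjusted p = 0.00943). Both calls were lost without knockdown-labelled replicate 1 or 2.

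Of 25 YAP, SRF and contractile genes 7 rose and 1 fell (28.0% and 4.00%), with a median log2 fold change of 0.63, 0.57 against control replicate 1 alone and 0.63 against control replicate 2 alone. Acta2, smooth muscle actin, stood at 550 and 808 CPM in control versus 1282 and 1443 CPM in the knockdown-labelled pair (1.005, SE 0.21, adjusted p = 0.0159). Flna, filamin A, which crosslinks actin, was at 457 and 488 CPM against 970 and 1108 CPM (1.14, SE 0.22, adjusted p = 0.0117), and Tpm1, tropomyosin, at 4497 and 3131 against 8232 and 7314 CPM (1.03, SE 0.23, adjusted p = 0.0213). Fhl2, a LIM protein, rose by 1.06 (SE 0.19, adjusted p = 0.00779), and Axl, Myh9 and Itga5 rose while Ankrd1 fell. Without knockdown-labelled replicate 1 only 1 gene of the list rose, and without replicate 2 none did (adjusted p = 0.0677 and 0.114 for Acta2, 0.0526 and 0.0934 for Flna, 0.127 and 0.0877 for Tpm1, 0.0215 and 0.0773 for Fhl2). Corrected for exon length, Flna had an adjusted p of 0.0552.

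Of 31 actin, microtubule and MACF1-partner genes, 2 rose and 3 fell (6.45% and 9.68%), and none passed when either knockdown-labelled replicate was left out. The tubulins Tubb4b (311 and 490 against 191 and 187 CPM; −1.08, SE 0.21, adjusted p = 0.0119) and Tubb2b (5.96 and 12.2 against 2.32 and 2.25 CPM; −1.95, SE 0.37, adjusted p = 0.0112) fell. Their adjusted p was 0.0873 and 0.102 for Tubb4b and 0.0873 and 0.091 for Tubb2b without the knockdown-labelled replicates in turn. Map1b, a microtubule-associated protein, had 204 and 589 CPM in control versus 168 and 146 CPM with the knockdown label (−1.33, SE 0.38, adjusted p = 0.0472). Mapre2, a microtubule plus-end protein, had 36.6 and 15.2 CPM against 56.5 and 60.6 CPM (1.16, SE 0.32, adjusted p = 0.0436). With the replicate number as a block neither passed (adjusted p = 0.0655 for Map1b and 0.0522 for Mapre2), nor did they without a knockdown-labelled replicate (0.176 and 0.224, and 0.151 and 0.186). Actn1 was the other member that rose. The rising share of this list was near the 6.94% of all genes tested, and the falling share compares with 4.78%.

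Of 29 glycolysis and hypoxia genes 5 fell and 2 rose (17.2% and 6.90%; 3 and 0 without knockdown-labelled replicate 1, 2 and 0 without replicate 2). Hk2, hexokinase 2, stood at 28.2 and 26.6 CPM in control versus 13.0 and 10.9 CPM under the knockdown label (−1.20, SE 0.17, adjusted p = 0.00249). Car9, a carbonic anhydrase induced by hypoxia, was at 2.95 and 2.68 CPM against 0.504 and 0.704 CPM (−2.25, SE 0.34, adjusted p = 0.00331). The rising share of this list was near the 6.94% of all genes tested. Of 26 NRF2 and antioxidant genes 3 rose and 2 fell (11.5% and 7.69%; 3 and 0, and 2 and 0, without the knockdown-labelled replicates in turn). Nqo1, a quinone reductase and the classic NRF2 target, was at 8.65 and 12.5 CPM against 57.4 and 62.2 CPM (2.52, SE 0.20, adjusted p = 0.000105), and Sod3, the extracellular superoxide dismutase, at 11.2 and 14.6 CPM against 73.5 and 63.9 CPM (2.43, SE 0.20, adjusted p = 0.00013). Gsto1 rose, and Gpx7 and Prdx6 fell. The median log2 fold change of this list was −0.06.

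Of 20 p53 targets 4 fell and 1 rose (20.0% and 5.00%), with 1 and 0 left when either knockdown-labelled replicate was left out. Bbc3, a death-promoting BH3 protein, was at 42.3 and 70.9 CPM in control versus 17.7 and 18 CPM in the knockdown-labelled pair (−1.66, SE 0.23, adjusted p = 0.0021), and Plk2, Btg2 and Fas fell while Sesn1 rose. The rising share of the p53 list lay below the 6.94% of all genes tested. Immediate early genes were split, 4 of 23 each way (17.4%; 1 and 2, and 2 and 2, without the knockdown-labelled replicates in turn). Klf2, a zinc-finger factor, fell from 21.3 and 30.5 CPM to 5.34 and 5.49 CPM (−2.25, SE 0.27, adjusted p = 0.00114) and Egr1 from 63.7 and 69.7 CPM to 27.4 and 31.8 CPM (−1.17, SE 0.17, adjusted p = 0.0028). Jun rose (69.4 and 50.5 against 118 and 120 CPM; 0.98, SE 0.19, adjusted p = 0.0115), a call lost without knockdown-labelled replicate 1 or 2 (adjusted p = 0.0705 and 0.078). Dusp1, a phosphatase of MAP kinases, had 9 and 4 counts in control and 58 and 57 with the knockdown label, and entered the test only through the latter. Dusp1 adds no support to the counts of its list, with or without a knockdown-labelled replicate. Of 32 interferon-stimulated and antigen presentation genes 4 rose and 2 fell (12.5% and 6.25%; 1 and 0 when either knockdown-labelled replicate was left out). Mx1, an interferon-induced GTPase, held 5 and 0 counts in control and 54 and 37 with the knockdown label, and was tested only through the latter. Mx1 likewise adds no support to the counts of its list. Gbp2, H2-K1 and H2-D1 rose while Tap1 and Psmb8 fell. Of 26 cholesterol and fatty acid synthesis genes Idi1 and Sqle rose (7.69%, near the 6.94% of all genes tested), and neither passed without knockdown-labelled replicate 1 or 2 (adjusted p = 0.146 and 0.168, and 0.12 and 0.12). None of 27 genes of unfolded protein and amino acid stress rose or fell by edgeR (6 were higher and 3 lower at an unadjusted p under 0.05), while DESeq2 gave 1 rise and 1 fall.

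Of 36 DNA replication genes Gins1, Rfc2 and Tyms fell and none rose, of 38 G2 and mitosis genes Birc5, Cenpa and Hmmr fell and none rose, and of 19 G1 cyclins and CDK inhibitors Ccnd1 rose and Cdk6 and Myc fell (8.33%, 7.89% and 10.5% falling, against 4.78% of all genes tested). None of these calls passed without knockdown-labelled replicate 1 or 2. Tyms, thymidylate synthase, stood at 83.7 and 112 CPM in control versus 49.0 and 45.1 CPM under the knockdown label (−1.05, SE 0.20, adjusted p = 0.0116; 0.0753 and 0.109 without the knockdown-labelled replicates in turn). Hmmr, a receptor for hyaluronan that acts at the spindle, was at 301 and 291 CPM against 201 and 177 CPM (−0.65, SE 0.18, adjusted p = 0.045; 0.146 and 0.234).

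Cytoplasmic ribosomal protein genes were the list with the most falls, 47 of 80 (58.8%) with 0 rises. They took 8.52% and 19.6% of counts in control and 5.80% and 5.66% in the knockdown-labelled pair. The control libraries differed from each other by more than control replicate 1 differed from the knockdown-labelled libraries. The median log2 fold change was −0.61 against control replicate 1 alone and −2.16 against control replicate 2 alone, the library that is also poor in long transcripts. The part of that library in these falls beyond the fits that leave it out was not tested. Rpl7a, a protein of the large subunit, was at 1223 and 2505 CPM against 571 and 487 CPM (−1.82, SE 0.31, adjusted p = 0.00683). By limma on log2(RPKM + 1), an alternative fit, 23 of the 80 genes fell. Corrected for exon length 44 of the 80 fell, and when either knockdown-labelled replicate was left out 0 did (Rpl7a, adjusted p = 0.0553 and 0.0803). Of 73 nuclear oxidative phosphorylation subunits 7 fell and none rose (9.59%), with medians of −0.15 against control replicate 1 alone and −1.42 against control replicate 2 alone, and none fell when either knockdown-labelled replicate was left out. None of 13 mitochondrially encoded transcripts rose or fell by edgeR or DESeq2 (1 was higher and 1 lower at an unadjusted p under 0.05). They took 3.09% and 1.91% of counts in control and 4.06% and 4.08% with the knockdown label.

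**Figure D3:**
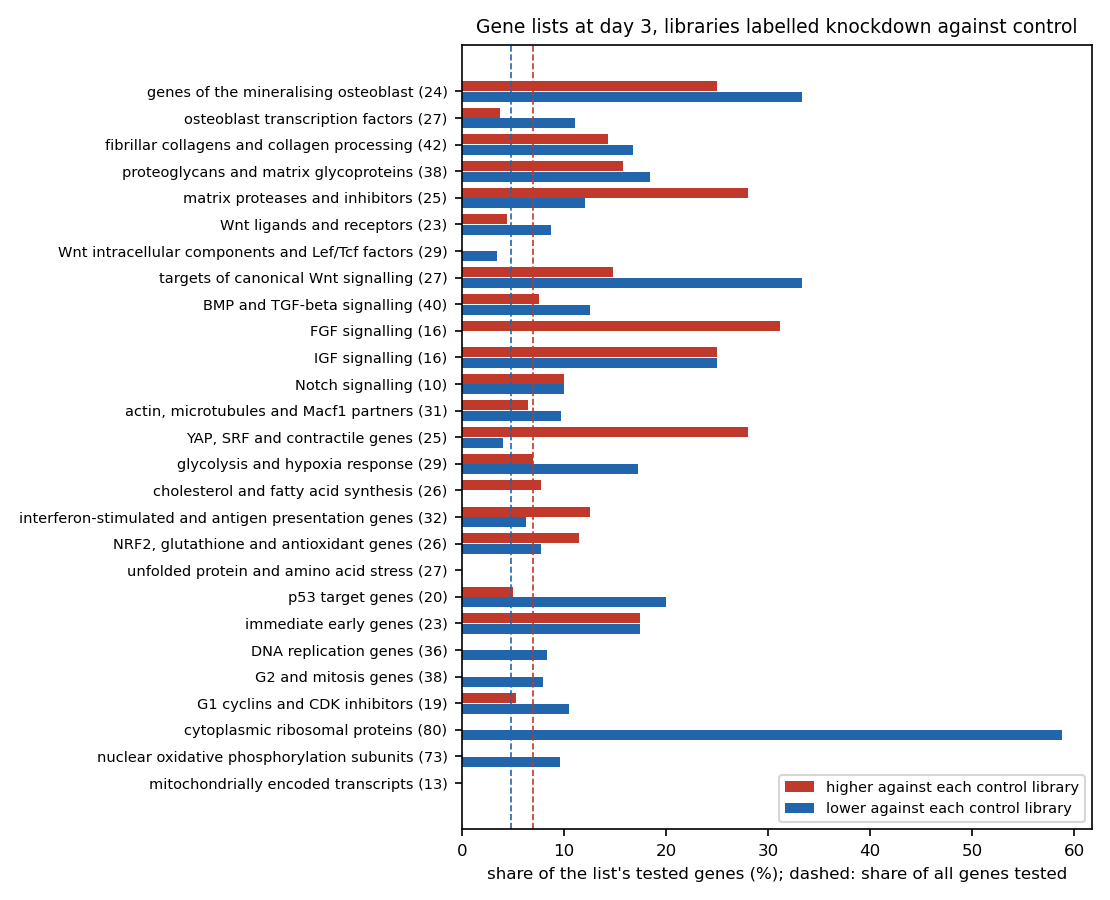
Share of the tested genes of each list (number in brackets, lists of 10 or more) that rose (red) or fell (blue) against each control library, with the shares of all genes tested as dashed lines (6.94% and 4.78%). Falling ribosomal protein genes (58.8%) make the longest bar, and the mineralising osteoblast and IGF signalling lists have both bars at or above 25.0%.

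Markers of other cell types were read in the same libraries. Adipoq and Retn of adipocytes, Pax7 of muscle precursors, Adgre1 and Calcr of macrophages and osteoclasts, Cdh5 of endothelium, Krt18 of epithelium and Col9a1 of cartilage had 0 counts in all 4 libraries. Other members of these lists did have counts. Sox9 of cartilage had 1432 and 1767 counts in control and 2097 and 1005 with the knockdown label, and Des of muscle 15 and 29 against 119 and 72. Neither of these rose or fell. The adipocyte list summed to 7.39 and 5.97 CPM of the unscaled library totals in control and 3.30 and 4.81 under the knockdown label, the macrophage and osteoclast list to 97.6 and 94.9 against 122 and 136, and the endothelial list to 36.1 and 45.6 against 59.0 and 52.5, with no member rising or falling. The epithelial list summed to 0.713 and 1.24 such CPM in control versus 19 and 17.6 in the knockdown-labelled pair. The 2 members that reached the count minimum, Krt14 (5 and 7 counts in control and 301 and 178 with the knockdown label) and Cdh1, E-cadherin (5 and 1 against 61 and 52), did so only through the knockdown-labelled libraries. Its defining members Krt5 and Krt8 had at most 1 count in any library. The part of such cells in other results was not tested. Of 8 chondrocyte markers 1 rose and 2 fell (12.5% and 25.0%, against 6.94% and 4.78% of all genes tested). Col2a1, the main collagen of cartilage, rose from 55.1 and 46.7 CPM to 185 and 200 CPM (1.92, SE 0.16, adjusted p = 0.000141). The cartilage factors Sox5 and Sox6 fell (−1.47 and −2.43, SE 0.35 and 0.42), lost without the knockdown-labelled replicates in turn (Sox5, adjusted p = 0.107 and 0.176; Sox6, 0.0758 and 0.0593), and Acan had 1 count in all 4 libraries together. Of 3 skeletal muscle markers tested, Acta1 had 1 and 3 counts in control and 62 and 53 with the knockdown label, and was tested only through the latter. Tnnc2 fell (6.92 and 12.5 against 0.705 and 0.563 CPM), but 74.0% of its exon length overlaps Ube2c on the opposite strand and its counts are uncertain. No Hox gene of 6 tested rose or fell by edgeR or DESeq2 (1 higher and 2 lower at an unadjusted p under 0.05).

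Among genes with a mean of at least 5 CPM, the large falls beside that of Igfbp2 included Panx3, a pannexin channel of differentiating osteoblasts, which stood at 77.1 and 45.8 CPM in control versus 2.52 and 3.10 CPM with the knockdown label (−4.46, SE 0.48, adjusted p = 0.000554). Grb14, an adaptor that inhibits the insulin receptor, was at 28.5 and 32.8 CPM against 2.67 and 2.25 CPM (−3.62, SE 0.27, adjusted p = 9.32e-05). Sema6a, a transmembrane semaphorin, fell by 3.01 (SE 0.24), Srpx2, a secreted sushi-repeat protein, by 2.74 (SE 0.18), Padi2, a protein deiminase, by 3.02 (SE 0.38) and Smoc2, a matricellular protein, by 2.88 (SE 0.57). The fall of Smoc2 was not called without knockdown-labelled replicate 1 or 2 (adjusted p = 0.106 and 0.11).

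Among the largest rises several genes were at or near 0 in control. Sybu, syntabulin, which links cargo to kinesin, held 3 and 0 counts in control and 330 and 247 under the knockdown label, a ratio of 126 (95% counting interval 43.0 to 614). Angpt1, angiopoietin 1, held 0 and 3 counts against 584 and 341, a ratio of 202 (69.0 to 983). Krt9, a keratin of thick skin, held 2 and 3 counts against 273 and 154, Epb4.1l4b 8 and 0 against 256 and 266, and Syt1, a synaptic vesicle calcium sensor, 7 and 0 against 262 and 145. These 5 genes had at most 8 counts in a control library and at least 145 in a knockdown-labelled one. Sema5a, a semaphorin, had 9 and 4 counts against 229 and 172, and Adam8, a cell-surface protease, 9 and 4 against 192 and 155. These 7 genes were tested only because their knockdown-labelled counts were high. Pid1, which acts in insulin signalling, rose from 4.42 and 3.72 CPM to 55.8 and 48.2 CPM (3.65, SE 0.21, adjusted p = 3.42e-05). Plekha6, Csgalnact1, an enzyme of chondroitin sulfate synthesis, and Prss35 were the others, with rises of 3.96, 4.43 and 3.68 (SE 0.34, 0.53 and 0.30).

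The day 3 differences were set beside those of the other days, which use other libraries. Of the 847 genes that rose at day 3, 366 were also called higher at day 0 (43.2% of the 847 and 64.4% of the 568 called higher at day 0, which were 4.65% of all genes) and 9 lower. At day 5 the numbers were 453 higher (53.5%, and 66.7% of 679, which were 5.56% of all genes) and 6 lower. Of the 583 that fell, 113 were called lower at day 0 (19.4%, and 31.8% of 355, which were 2.91% of all genes) and 4 higher. At day 5, 149 of them were called lower (25.6%, and 50.5% of 295, which were 2.42% of all genes) and 0 higher. Set against the course of control cells from day 0 to day 5, which uses no day 3 library, 96 of the 583 falling genes rose with time (16.5%, and 18.2% of the 527 that rose, which were 4.32% of all genes) and 15 fell. Of the 847 rising genes, 163 fell with time in control (19.2%, and 32.8% of the 497 that fell, which were 4.07% of all genes) and 59 rose. The control rise from day 0 to day 5 was 9.31 on the log2 scale for Ibsp, 5.81 for Alpl, 6.87 for Panx3 and 4.23 for Tnfrsf19. These 4 genes fell at day 3 in the knockdown-labelled pair. Ibsp, Alpl and Tnfrsf19 were already called lower at day 0 (log2 fold changes of −2.57, −3.62 and −5.23). Panx3 was not (−0.67, adjusted p = 0.638 by edgeR).

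Whether the day 3 difference itself differed from that at day 0 was tested as an interaction, where a gene that did not pass is not shown to be alike on both days. Against each control library, 26 passed with the difference higher at day 3 (0.213%) and 12 with it lower (0.0983%), and 4 and 1 remained without knockdown-labelled replicate 1, 6 and 4 without replicate 2. H19 turned around. Its knockdown-labelled libraries were above control at day 0 (6.51 and 6.75 against 0.757 and 0.209 CPM) and below it at day 3, a difference between days of −7.16 (adjusted p = 0.00214). By day 5 control stood at 543 and 442 CPM and the libraries labelled knockdown at 6.52 and 8.40 CPM. Sfrp2 was at 1265 CPM in both control libraries and 119 and 137 CPM in the knockdown-labelled pair at day 0, a gap that was narrower at day 3 by 2.55 (adjusted p = 0.00599). Npnt, nephronectin, a ligand of integrins, likewise went from 351 and 401 against 44.7 and 46.4 CPM at day 0 to 1493 and 1326 against 909 and 934 CPM at day 3 (2.43, adjusted p = 0.00599). By day 5 the order of its groups was reversed, at 929 and 1018 against 1347 and 1536 CPM, a difference that did not pass by edgeR (0.57, adjusted p = 0.0819). The fall of Npnt at day 3 (−0.61, SE 0.17, adjusted p = 0.0452) was lost without knockdown-labelled replicate 1 or 2 (adjusted p = 0.201 and 0.192). Igf1 and Acta2 were below control at day 0 and above it at day 3 (differences between days of 2.20 and 1.87, adjusted p = 0.00735 and 0.0364). Tnfrsf19 was below control on both days, with a gap narrower at day 3 by 1.94 (adjusted p = 0.0212).

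Against day 5, 14 genes had a difference higher at day 3 (0.115%) and 0 a lower one by edgeR, with 479 lower at an unadjusted p under 0.05 and 28 called lower by DESeq2. With the replicate number as a block, 15 were higher and 3 lower. Without knockdown-labelled replicate 1 or 2, 3 and 5 were higher. Col2a1, Wif1 and Dmp1, above control at day 3, were below it at day 5. Col2a1 stood at 247 and 263 CPM in control versus 160 and 177 CPM with the knockdown label at day 5 (difference between days 2.52, adjusted p = 0.00266). For Wif1 the day 5 values were 81.8 and 86.4 against 28.2 and 33.4 CPM (3.57, adjusted p = 0.00615), and for Dmp1 129 and 120 against 75.4 and 65.3 CPM (2.61, adjusted p = 0.0189), where the fall at day 5 itself did not pass (adjusted p = 0.0631). Col11a2 was at 230 and 206 CPM in control at day 5 and 1.77 and 1.81 CPM under the knockdown label, a wider gap than at day 3 (4.13, adjusted p = 0.00266). In each of these 4 genes both control libraries stood higher at day 5 than at day 3.

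**Figure D4:**
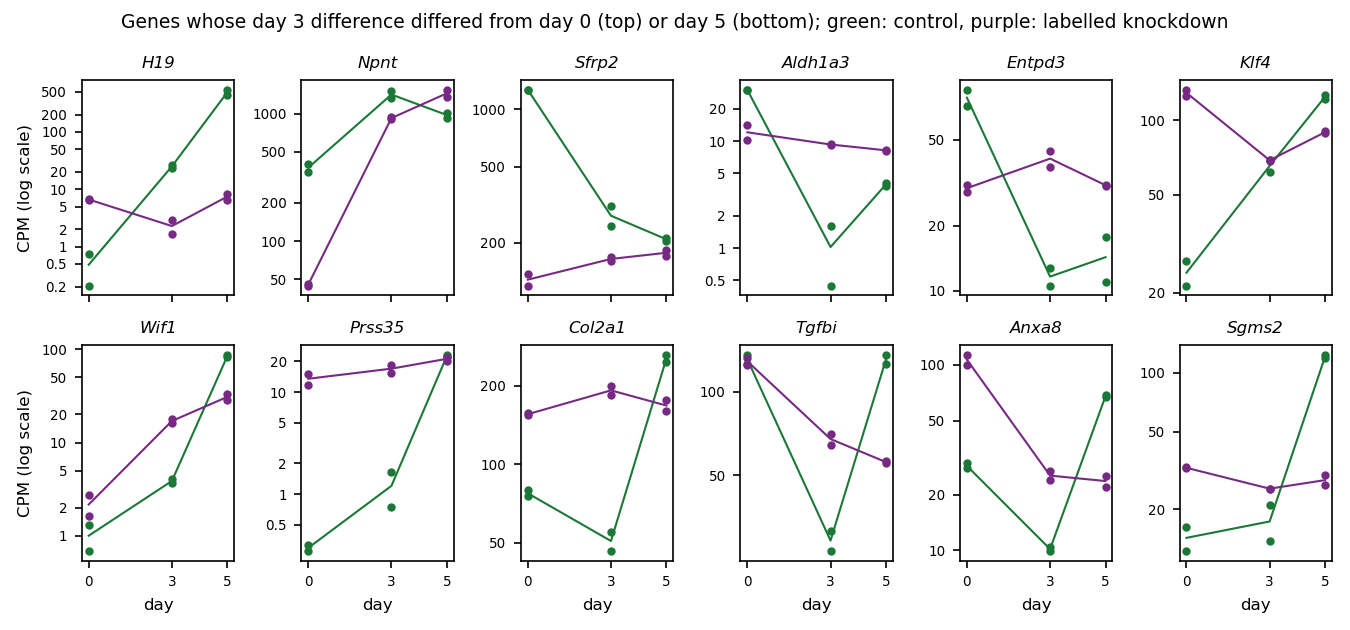
CPM on a log axis at days 0, 3 and 5 of 6 genes whose day 3 difference differed from that at day 0 (top row) and 6 whose difference differed from that at day 5 (bottom row), with points for single libraries and lines through group means (green, control; purple, labelled knockdown). The lines of H19, Entpd3, Aldh1a3 and Tgfbi cross between days 0 and 3. Those of Npnt, Klf4, Wif1, Prss35, Col2a1, Tgfbi, Anxa8 and Sgms2 cross between days 3 and 5.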

How the data were processed

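RNA of MC3T3-E1 cells was measured in 14 libraries, of which the 4 of day 3 were compared here. Per the labels' protocols, oligo(dT)-selected RNA treated with DNase went into directional libraries. bcl2fastq, TopHat2, edgeR and GRCm38 appear in the submitters' processing notes without versions. How reads were counted, with which strand setting and annotation, is not given in the sources used here. Raw counts per gene were deposited by the authors for 24346 genes, with RPKM values for 24340 genes. Positions and exon lengths come from the GENCODE annotation of GRCm38 and were found for 24181 genes. Overlapping or antisense genes may share reads.

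The model had 1 mean for each of 8 groups over all 14 libraries, which share 1 dispersion trend (edgeR 4.0.16 in R 4.3.3, quasi-likelihood F test in its robust form with TMM scaling, leaving 6 residual degrees of freedom). Benjamini-Hochberg adjustment ran over the 12208 genes tested, with a threshold of 0.05. The same model was refitted without each control library of day 3, and a rise or fall had to pass in all 3 fits. A difference between days was tested as an interaction by the same rule. Lists are described by counts and medians. Intervals on ratios of counts are exact at the 95% level and cover counting error only. The tests were run on simulated counts in which 100 genes changed 2-fold and 100 changed 4-fold. The rule of 3 fits recovered 2% and 64% of these at day 3. For the difference from day 0 it recovered 0% and 5%, and for that from day 5 1% and 18%. A gene that did not pass is therefore not shown to be unchanged. The simulated counts did not carry the exon length pattern of control replicate 2. They also gave every library the spread estimated with both control libraries. Leaving out a control library could therefore not lower the spread as it did in the data (common dispersion 0.0465 to 0.0114). The recovered shares may thus differ from those of the rule in these data. Alternatives were RLE scaling, DESeq2 1.42.0, no filter, the 4 libraries alone, the replicate number as a block, an exon length correction, limma 3.58.1 on log2(RPKM + 1), and each library left out. The comparison, the 36 gene lists and the tests were chosen with earlier results of these data known.

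Genes described with values were drawn from 18 chosen by symbol, the 15 rises and 15 falls ranked by the smaller difference from the 2 controls at a mean of at least 5 CPM, up to 4 members per list, 6 per test between days and 5 of opposite sign. Other members are given by name or in counts only, and results for 1 item are not reported here. The day comparisons of Igf1, Acta2, Dmp1, Col11a2 and Tnfrsf19 were picked after their values were seen. So were the control course and day 0 differences of 4 genes. Same-numbered libraries of the 2 conditions deviated together (correlation 0.426, 0.171 and 0.422 across genes at days 0, 3 and 5), a pairing that comes from the replicate numbers in the labels, while across days the same correlation ran from 0.0208 to 0.494.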

Additional observations from a re-analysis of the deposited data

Results flagged for a closer look

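Of the 38 genes whose difference between the conditions at day 3 differed from that at day 0 by the interaction test, and the 14 for day 5, 6 each are given here, chosen by adjusted p among genes with a mean of at least 5 CPM. Relative to day 0, the log2 fold change at day 3 was higher by 4.30 for Aldh1a3, an enzyme of retinoic acid synthesis, 3.20 for Entpd3, an ectonucleotidase, 2.43 for Npnt and 2.55 for Sfrp2. The log2 difference was −7.16 for H19 and −2.34 for Klf4, a zinc-finger factor. Klf4 itself did not pass at day 3 (61.9 and 68.8 CPM in control, 69.2 and 68.7 CPM with the knockdown label; adjusted p = 0.764). Relative to day 5, the log2 fold change at day 3 was higher by 2.83 for Anxa8, 2.52 for Col2a1, 3.77 for Prss35, 2.65 for Sgms2, a sphingomyelin synthase, 2.45 for Tgfbi and 3.57 for Wif1. Sgms2 did not pass at day 3 (20.9 and 13.7 CPM in control, 25.5 CPM in both knockdown-labelled libraries; adjusted p = 0.119). The adjusted p of edgeR's quasi-likelihood test was 0.00214 to 0.00735 for the 6 genes set against day 0 and 0.00266 to 0.0129 for the 6 set against day 5.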

How the results depend on the processing

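With only the 4 libraries of day 3, 0 genes were called higher and 0 lower, and 0 of each passed against every control library, by edgeR (smallest adjusted p 0.108, with 743 higher and 605 lower at an unadjusted p under 0.05; DESeq2 on all libraries called 1298 and 1557). Limma on log2(RPKM + 1) called 397 lower and gave 313 falls against each control. Leaving out 1 library moved the genes called from 293 to 4128 higher and from 66 to 3521 lower, and the genes that passed against each control from 293 to 302 higher and from 66 to 72 lower. For the difference from day 0 the called genes went from 4 to 3239 higher and from 1 to 2732 lower, and those past all 3 fits from 4 to 6 and from 1 to 4. For the difference from day 5 they went from 3 to 3210 higher and from 0 to 2718 lower, and from 3 to 5 higher past all 3 fits. Leaving out control replicate 1 gave the highest counts and leaving out a knockdown-labelled library the lowest. Without a filter on low counts, the difference from day 0 was called in 100 genes higher and 55 lower (100 and 49 past all 3 fits) and that from day 5 in 46 and 17 (44 and 14). The length correction gave 62 and 22 from day 0, and 5 lower from day 5. The cause of these shifts was not tested.

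With the replicate block 1005 genes rose and 823 fell, 824 and 545 of them shared with the 847 and 583, and 3 genes had a lower difference at day 3 than at day 5. Among the 126 named genes that rose or fell, the replicate block ended the calls of Map1b and Mapre2 and changed no other call, RLE scaling and DESeq2 ended none, the length correction 6, no filter 9, limma 16, and leaving out knockdown-labelled replicate 1 or 2 ended 52 or 54. Direction changed only in genes that neither rose nor fell. Leaving out 1 library gave log2 fold changes of −0.44 to 1.75 for Caprin1, −0.47 to 2.37 for Ipo7, −0.34 to 2.27 for Krit1, −0.43 to 2.19 for Pawr, −0.47 to 2.15 for Ppfibp1 and −0.17 to 1.61 for Macf1, each lowest without control replicate 2 and highest without control replicate 1. The same ranges were −0.62 to 0.51 for Axin2, −0.12 to 0.21 for Col1a1, −0.48 to 0.065 for Ctnnb1 and −0.25 to 0.54 for Tcf12. Limma gave 0.11 for Axin2 and 0.055 for Ctnnb1, and the length correction −0.18 for Col1a1 and −0.18 for Tcf12. Depth limits genes of few counts, and control replicate 2 is the shallowest of the 4 libraries.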
